A study of Homo sapiens with 6 samples.

Results

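The genes described here are 10 keratins, chosen by their names and by their values in SP2509 against untreated cells, and taken from the 60675 genes of the count table: KRT7, KRT8, KRT18, KRT19 and KRT20, which belong to simple epithelia, and KRT10, KRT15, KRT16, KRT23 and KRT80, which are counted here as the other members. Their RNA was measured by sequencing in HCT116, an established human colorectal carcinoma line, in 3 groups of 2 libraries: untreated, treated with 3 uM SP2509 over 48 h, and a PIR knockdown by small interfering RNA, also 48 h (siPIR). All groups share the HCT116 background, and the labels give the genotype of the untreated and SP2509 cells as Wildtype and that of the siPIR cells as PIRIN Knockdown. SP2509 is known to inhibit LSD1, a histone demethylase, and PIR encodes the nuclear protein Pirin. The siPIR titles name the knockdown alone, while their treatment label names SP2509, and the labels do not settle if the compound was also given. No library is labelled as transfected with a non-targeting siRNA, and a solvent is named in the protocol but not in the label of the untreated cells. Nothing in the labels says that replicates came from separate cultures, so the p-values cover the spread of these samples alone, and it may be technical.

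Keratins are the intermediate filament proteins of epithelial cells. A type I keratin pairs with a type II keratin to build the filament, and in the simple epithelium of the gut the main pair is KRT8 (type II) with KRT18 (type I), joined by the type I keratins KRT19 and KRT20. KRT20 is known as a marker of differentiated intestinal cells. KRT7 is the type II keratin of many glandular and ductal epithelia. KRT16 is known as a stress keratin of wounded or hyperproliferative skin, KRT10 as a keratin of the differentiating epidermis, and KRT15 as a keratin of basal cells.

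The 10 genes lie in the 2 keratin clusters of the genome (GRCh38, GENCODE release 29). On chromosome 12 are KRT80 (52168996 to 52192000, minus strand), KRT7 (52232520 to 52252186, plus), KRT8 (52897187 to 52949954, minus) and KRT18 (52948871 to 52952901, plus). On chromosome 17 are KRT10 (40818117 to 40822595), KRT20 (40875941 to 40885227), KRT23 (40922696 to 40937634), KRT15 (41513743 to 41522529), KRT19 (41523617 to 41528308) and KRT16 (41609778 to 41615899), all on the minus strand. KRT18 is the one type I member on chromosome 12. KRT15 and KRT19 are separated by 1087 bases. KRT8 and KRT18 overlap on opposite strands by 525 exonic bases, which is 7.6% of the KRT8 exons and 16.3% of the KRT18 exons, and no source used here gives the strand setting of the counting. Counts on pseudogenes named for a member were low beside the parent gene: the 50 KRT8 pseudogenes together held between 0.312% and 0.631% of the KRT8 count, and the 67 KRT18 pseudogenes between 0.0807% and 0.276% of the KRT18 count. The 6 KRT16 pseudogenes held 34.8 and 39 counts in the SP2509 libraries, which is 5.94% and 6.09% of KRT16, and between 0 and 7 counts in every other library.

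Promoters of 3 of the 10 members (KRT8, KRT10 and KRT20) were found in the RefSeq table (GRCh38.p14), each with 250 bases before the start and 50 bases from it. The start of KRT8 in that table (chr12:52926469) lies inside the gene span given above and not at its end, so its promoter is not shown. Those of KRT10 and KRT20 are shown. These genes lie on chromosome 17, 53345 bases apart, and their levels moved in opposite directions in both comparisons described further down. KRT10 is read from chr17:40822565-40822864 and KRT20 from chr17:40885193-40885492, both on the minus strand and printed 5′ to 3′. Capitals mark the matches to 8 motifs searched on both strands.
KRT10: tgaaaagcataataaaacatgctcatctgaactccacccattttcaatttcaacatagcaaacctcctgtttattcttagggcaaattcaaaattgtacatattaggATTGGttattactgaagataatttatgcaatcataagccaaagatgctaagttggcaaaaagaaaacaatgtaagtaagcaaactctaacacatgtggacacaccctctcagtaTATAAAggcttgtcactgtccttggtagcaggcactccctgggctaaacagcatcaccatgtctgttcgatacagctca
KRT20: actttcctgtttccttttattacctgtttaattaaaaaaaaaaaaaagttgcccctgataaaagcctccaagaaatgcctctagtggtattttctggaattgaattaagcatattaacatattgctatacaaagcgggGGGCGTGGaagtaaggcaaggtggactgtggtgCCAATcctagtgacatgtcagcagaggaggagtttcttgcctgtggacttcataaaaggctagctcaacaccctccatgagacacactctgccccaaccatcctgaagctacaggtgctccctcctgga
In KRT10 the capitals mark ATTGG at position -143, which is CCAAT on the other strand, and the TATA box letters TATAAA at position -29, counted from 0 at the first transcribed base. In KRT20 they mark the KLF motif GGGNGTGG at position -112 and CCAAT at position -79. TATAAA is present in 11.5% of all 35116 promoters of the table, CCAAT in 34.6% and GGGNGTGG in 17.2%. The other motifs searched were TGANTCA (AP-1, 7.71% of all promoters), TGACGTCA (CRE, 1.85%), TGATGNAA (ATF4-CHOP, 3.62%), TTTATNG (CDX, 9.73%) and GGGCGG (GC box, in 15786 of the 35116), and their letters are not in these windows, which says nothing about the factors themselves.

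The libraries held between 22622441 and 28816590 counts. Mitochondrial ribosomal RNA made up 6.33% and 6.93% of the SP2509 libraries and from 1.14% to 1.63% of the others, and its part in the keratin values was not tested. Counts of the siPIR libraries came from transcripts with less GC (count-weighted mean GC content 42.3% and 42.8%) than those of the other 4 libraries (between 48.3% and 48.7%). PIR itself was at 14.5 ± 0.180 CPM (deposited counts scaled to library size by TMM, SD, n = 2) in untreated, 1.98 ± 0.069 CPM in siPIR and 13.3 ± 2.1 CPM in SP2509 cells. All 11 general epithelial markers on the list passed the filter on low counts, CLDN3 not through the siPIR libraries, where it had 2 counts in each. The list summed to 1120 and 1125 CPM without treatment, 1763 and 1864 CPM with SP2509, and 1790 and 1673 CPM with siPIR. Of the 11, 8 were higher and 2 lower in SP2509 cells, against 5 higher and 6 lower in siPIR cells (median log2 fold change -1.30, and 0.48 with the offset for GC content), where EPCAM went from 212 to 713 CPM and CLDN4 from 178 to 15.9 CPM. With upper-quartile scaling 7 were higher and 2 lower in SP2509 cells, and with total counts alone 6 and 3. For siPIR these splits were 5 and 6, and 4 and 6. Over all genes tested, 33.5% were called higher and 35.1% lower in SP2509 cells, and 39.3% and 46.9% in siPIR cells. Of 8 intestinal markers only CDX2 was tested, CDX1 and CEACAM6 had no count in any library, and the markers summed to between 1.51 and 16.2 CPM. Of the other cell types, the fibroblast list (8 genes) summed to between 1.93 and 25.8 CPM, with COL1A1 at 23.4, 21.2 and 1.36 CPM on average in untreated, SP2509 and siPIR cells, while COL1A2 had no count in any library. The endothelial list (5 genes) stayed at or below 1.83 CPM and the leukocyte list (8 genes) at or below 1.4 CPM, with PTPRC and CD3E at 0 in all libraries.

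In untreated cells the keratin RNA was almost wholly that of KRT19, KRT8 and KRT18. To compare genes, CPM was divided by the length of the union of the exons of a gene (CPM per kb). On this scale KRT19 had 310 and 292 CPM per kb in the 2 untreated libraries, KRT8 270 and 269, and KRT18 225 and 216, and these 3 did not overlap. The next were KRT10 at 10.4 ± 0.332 (SD, n = 2) and KRT23, a type I keratin, at 8.89 ± 1.64 CPM per kb, followed by KRT7 at 2.88 ± 0.532. KRT80 (1.49 ± 0.203), KRT15 (1.34 ± 0.16) and KRT20 (1.27 ± 0.267) came next, and KRT15 overlapped both KRT80 and KRT20 in its values. KRT16 was lowest at 0.241 ± 0.0565 CPM per kb, from 18 and 21.5 counts. The top of this order depends on the length used: with the longest transcript in place of the exon union, KRT8 held 42.3% of the summed CPM per kb of the 10 genes, KRT19 33.1% and KRT18 22.3%, against 32.9%, 36.8% and 27.0% with the union. The 5 other members together made up 2.74% ± 0.229 of the sum.

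**Figure D1:**
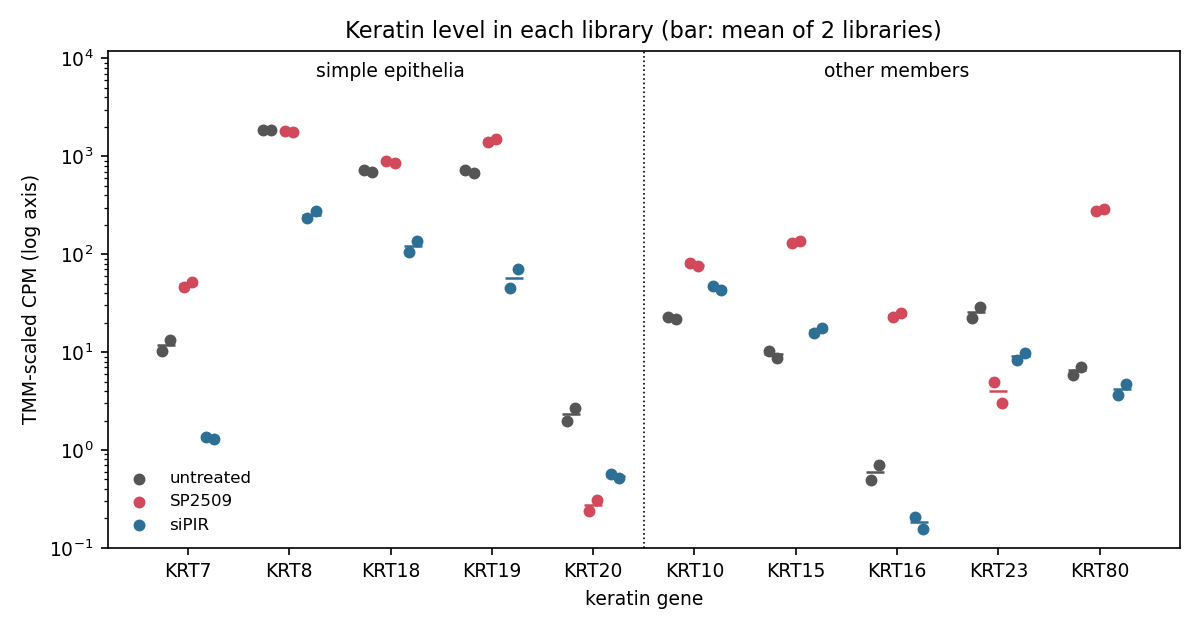
Level of each of the 10 keratins in every library, as TMM-scaled CPM on a log axis, with simple keratins left of the dotted line; points are libraries and bars the mean of 2. KRT8, KRT18 and KRT19 are the highest in every untreated and SP2509 library, and KRT80 and KRT16 are far higher in SP2509 than in untreated libraries.

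The comparison of SP2509 with untreated cells is the one on which KRT80 and KRT16 had been picked out for the size of their difference, and the members were chosen with its results known. Its values are therefore given as a description, with no p. Relative to untreated cells, 4 of the 5 other members were higher in SP2509 cells and KRT23 was lower, with a median log2 fold change of 3.80, while the 5 simple keratins spread from -3.07 to 2.07 around a median of 0.30. The median over all 16503 genes tested was -0.039. At the threshold used for all genes (adjusted p under 0.05), which 68.6% of all genes passed, 9 of the 10 members did, 7 of them higher (33.5% of all genes) and 2 lower (35.1%). Because these values chose the members, nothing is read from the counts. Under both other scalings (upper quartile, total counts) they became 6 and 3, since KRT18 no longer passed and KRT8 was called lower. Without either untreated or either SP2509 library KRT18 did not pass, which left 8. With an offset for GC content and transcript length, described further down, 9 passed (72.6% of all genes), 7 higher (38.8%) and 2 lower (33.8%). Libraries of the groups did not overlap for any of the 10 members, nor for 86.9% of all genes.

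Among the simple keratins, KRT8, the main type II keratin of the gut, had 1856 and 1848 CPM in untreated libraries and 1812 and 1773 CPM in SP2509 libraries. The SP2509 libraries were slightly lower, with a log2 fold change of -0.047 (SE 0.105), which moved to -0.28 with upper-quartile scaling, -0.44 with total counts and 0.14 with the GC-length offset. KRT18, its type I partner, had 724 and 696 CPM in untreated and 888 and 865 CPM in SP2509 libraries (log2 fold change 0.30, SE 0.116). This small difference turned to -0.086 with total counts alone, so its direction depends on the scaling. The remaining 3 simple keratins differed by more. KRT19, a type I keratin that pairs with KRT8, had 723 and 683 CPM in untreated and 1406 and 1511 CPM in SP2509 libraries, a log2 fold change of 1.05 (SE 0.154). KRT7 had 10.2 and 13.3 CPM in untreated and 46.6 and 51.8 CPM in SP2509 libraries (2.07, SE 0.129). KRT20 went the other way, with 72 and 85 counts (1.99 and 2.69 CPM) in untreated and 6 and 8 counts (0.236 and 0.31 CPM) in SP2509 libraries. That is 11.8% of untreated (exact 95% interval from the counts, 6.3% to 20.4%), and a log2 fold change of -3.07 (SE 0.335).

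KRT80, a type II keratin, had the largest difference of the 10. It had 5.86 and 7.12 CPM in untreated libraries and 275 and 290 CPM in SP2509 libraries, 43.6-fold higher by the fit (log2 fold change 5.45, SE 0.138). The counts of KRT16 were 18 and 21.5 without and 585 and 641 with SP2509, or 0.498 and 0.696 against 23.0 and 24.8 CPM. Its log2 fold change was 5.33 (SE 0.177), and the ratio of the summed counts was 40.5 with an exact 95% counting interval of 29.6 to 57.0. Reads of KRT16 can be shared with KRT14, KRT17 and its pseudogenes, which are near-identical in parts, so its level is uncertain by that share. KRT15 had 10.3 and 8.66 CPM in untreated and 129 and 135 CPM in SP2509 libraries (3.80, SE 0.12). KRT10 had 22.8 and 21.8 CPM in untreated and 81.7 and 75.1 CPM in SP2509 libraries (1.82, SE 0.104). KRT23 alone among the other members was lower, with 22.4 and 29.2 CPM in untreated and 4.99 and 2.99 CPM in SP2509 libraries (-2.69, SE 0.199). For these 5 genes and for KRT7, KRT19 and KRT20 the direction was the same under all 17 alternative settings.

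By position, KRT20 and KRT23, which stand next to each other among the members on chromosome 17, were both lower in SP2509 cells, while KRT10, on the other side of KRT20, was higher. KRT15 and KRT19 were both higher, by log2 fold changes of 3.80 and 1.05, and KRT80 and KRT7, 40519 bases apart on chromosome 12, by 5.45 and 2.07.

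**Figure D2:**
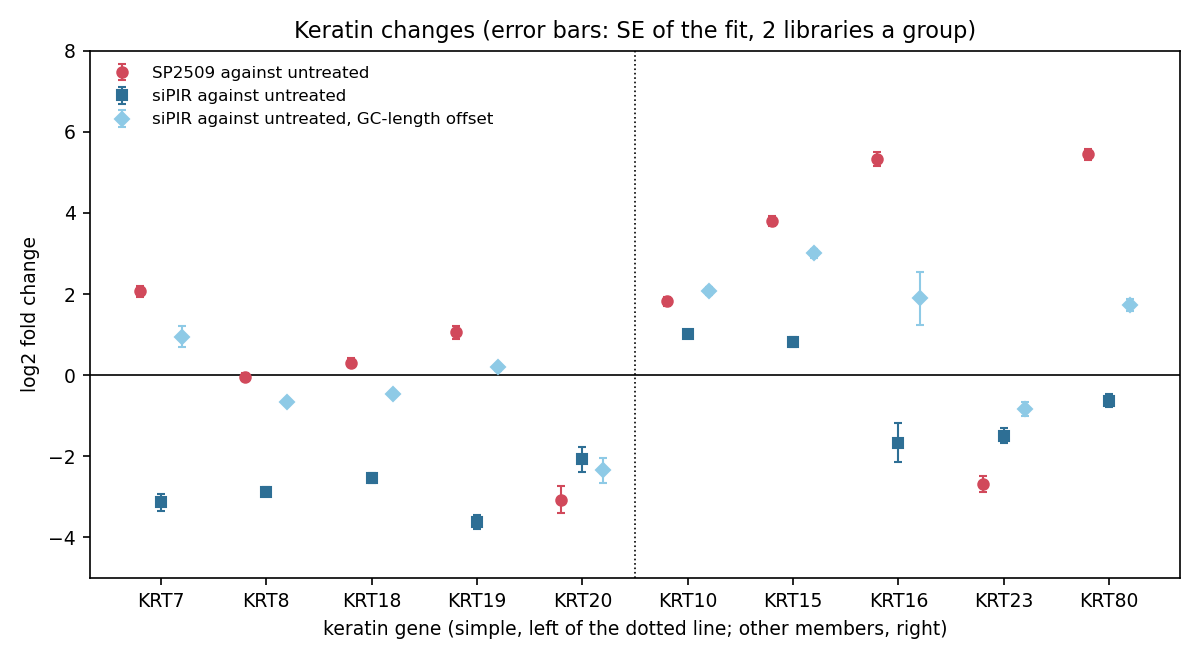
Log2 fold changes of the 10 keratins with the SE of the fit as error bars, for SP2509 against untreated, siPIR against untreated, and siPIR against untreated with the GC-length offset. KRT80 and KRT16 exceed 5 in SP2509 cells, and KRT7, KRT16, KRT19 and KRT80 lie on the other side of 0 in siPIR cells once the offset is applied.

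The composition of the keratin RNA differed accordingly. The summed level of the 10 genes was 829 and 805 CPM per kb in untreated and 1283 and 1318 CPM per kb in SP2509 libraries. KRT19 held 36.8% ± 0.717 (SD, n = 2) of the sum in untreated and 48.0% ± 1.54 in SP2509 libraries, and KRT8 32.5% and 33.3% in untreated against 20.5% and 19.6% in SP2509 libraries. The share of KRT80 was 0.183% ± 0.0287 in untreated and 4.99% ± 0.0896 in SP2509 libraries, which made it the fourth most abundant member there. Together the other members held 2.74% ± 0.229 in untreated and 10.1% ± 0.122 in SP2509 libraries. Shares do not depend on the scaling of the libraries, but they depend on the length: with the longest transcript the other members held 1.79% and 6.65%, and KRT80 3.19% in SP2509 libraries. The ratio of type II to type I keratin RNA was 0.492 and 0.514 without treatment, 0.358 and 0.344 with SP2509, and 0.436 and 0.419 with siPIR, and the groups did not overlap. With 2 libraries a group an exact permutation test cannot give a p below 0.333, so none was run on these shares. In bulk RNA a shift in the share of cells that hold a keratin and a shift in its RNA per cell cannot be told apart.

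**Figure D3:**
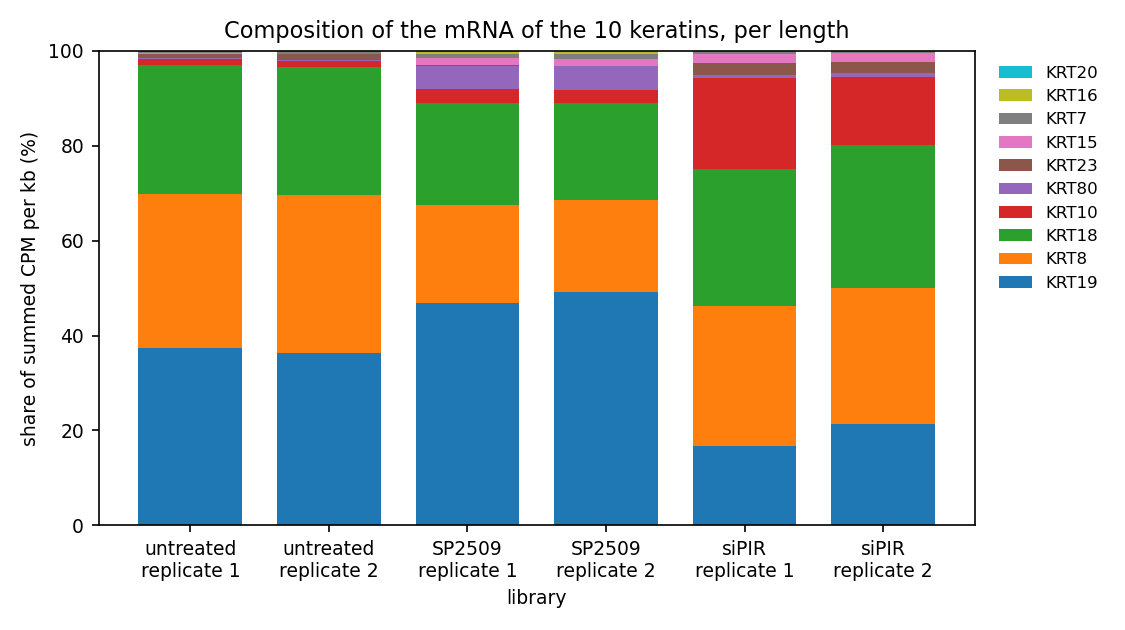
Share of each keratin in the summed CPM per kb of the 10 genes, 1 bar per library. KRT19, KRT8 and KRT18 fill most of each bar, KRT80 reaches 4.99% on average in SP2509 libraries, and KRT10 reaches 19.2% and 14.3% in siPIR libraries.

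The comparison of siPIR with untreated cells is about the knockdown of PIR, within the limit of the labels given above. It shares the untreated libraries with the comparison above. All 5 simple keratins fell, with a median log2 fold change of -2.87. Of the other members KRT10 and KRT15 rose and KRT16, KRT23 and KRT80 fell (median -0.63). All 10 members thus passed the test, where 86.1% of all genes did, with 8 lower (46.9% of all genes) and 2 higher (39.3%). The groups did not overlap for any member, nor for 93.1% of all genes, and the median over all genes was -0.28.

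KRT8 had 232 and 274 CPM in siPIR libraries, a log2 fold change from untreated of -2.87 (SE 0.113, edgeR adjusted p = 7.87e-11). KRT18 had 107 and 136 CPM (-2.55, SE 0.123, edgeR adjusted p = 4.04e-10). Both libraries of the main pair thus lay far below the untreated ones. Per length of the exon union, KRT18 and KRT8 no longer differed beyond their spread (37.7 ± 6.48 and 36.8 ± 4.3 CPM per kb, SD, n = 2). That depends on the length: with the longest transcript the ratio of KRT8 to KRT18 was 1.59 and 1.47 in siPIR libraries. In untreated libraries it was 1.87 and 1.94 on that length. KRT19 had 45.1 and 69.8 CPM (-3.61, SE 0.171, edgeR adjusted p = 3.4e-10), the largest fall of the 10. KRT7 was at 1.36 and 1.30 CPM, from 26 and 25 counts (-3.14, SE 0.209, edgeR adjusted p = 8.07e-09). KRT20 was at 11 and 10 counts, or 23.6% of untreated with an exact 95% interval from the counts of 14.2% to 37.4% (log2 fold change -2.08, SE 0.313, edgeR adjusted p = 3.28e-05).

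Among the other members, KRT10 had 47.3 and 42.7 CPM in siPIR libraries, 2.02-fold above untreated (log2 fold change 1.02, SE 0.105, edgeR adjusted p = 7.74e-07). The size of this rise depends on the scaling, as its log2 fold change was 0.40 with total counts alone (edgeR adjusted p = 0.00286). KRT15 had 15.8 and 17.7 CPM (0.82, SE 0.125, edgeR adjusted p = 3.56e-05), and with total counts alone it no longer passed (0.20, edgeR adjusted p = 0.161). KRT23 had 8.36 and 9.89 CPM (-1.50, SE 0.185, edgeR adjusted p = 4.78e-06). KRT80 was at 3.66 and 4.69 CPM (-0.63, SE 0.165, edgeR adjusted p = 0.00295), and with the description number as a block its change was -0.39 (edgeR adjusted p = 0.0535). KRT16 was down to 4 and 3 counts, or 30.9% of untreated with an interval from the counts of 11.7% to 69.8% (-1.67, SE 0.479, edgeR adjusted p = 0.00541). In the keratin sum of the siPIR libraries (115 and 140 CPM per kb) KRT10 took 19.2% and 14.3%, against 1.28% and 1.26% in untreated libraries. With the longest transcript its siPIR shares were 11.4% and 8.31%.

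These changes stand beside a trend with GC content that runs through all genes of the siPIR comparison. Its median was 0.063 (log2 fold change) for the 2900 genes with 45 to 50% GC, -1.18 over the 2577 genes with 50 to 55%, -2.61 over the 2429 genes with 55 to 60% and -4.11 over the 1789 genes with 60 to 65%. The keratin transcripts have GC contents between 45.7% (KRT20) and 62.9% (KRT7). KRT8 (56.2% GC), KRT18 (55.7%), KRT19 (61.8%) and KRT23 (50.3%) changed by values inside the middle 50% of the genes in their GC band. KRT7 at -3.14 lay just above that range (-5.11 to -3.25). KRT10 (52.0% GC), KRT15 (56.3%), KRT16 (61.0%) and KRT80 (56.8%) lay above it, with KRT15 at 0.82 where the range was -3.36 to -1.78. KRT20 lay below it, at -2.08 where the range was -0.64 to 0.67.

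**Figure D4:**
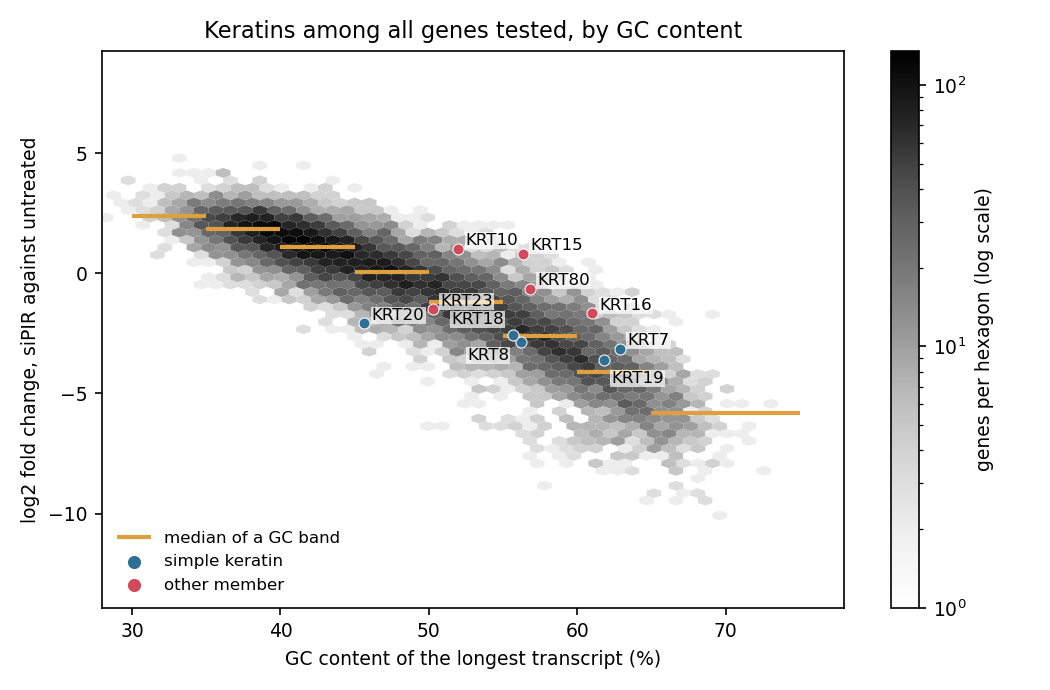
Log2 fold change of siPIR against untreated for the genes tested (grey hexagons, darker for more genes) against the GC content of the longest transcript, with the median of each GC band as a line and the 10 keratins as points. KRT8, KRT18, KRT19 and KRT23 lie within the cloud at their GC content, KRT10, KRT15, KRT16 and KRT80 lie above its middle and KRT20 below.

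With an offset that removes a trend on GC content and transcript length from each library, 9 members passed (64.0% of all genes): 5 members were higher in siPIR cells (33.4% of all genes), and 4 were lower (30.6%), while KRT19 did not pass (log2 fold change 0.19, SE 0.0856, edgeR adjusted p = 0.0552). The offset comes from these libraries themselves and also removes any change that follows GC content for another reason. The trend and the knockdown lie in the same 2 libraries and cannot be told apart. The rise of KRT10 was then 2.07 (edgeR adjusted p = 6.3e-14) and that of KRT15 was 3.00 (edgeR adjusted p = 9.58e-16). KRT7, KRT16 and KRT80 turned from lower to higher, to 0.95 (edgeR adjusted p = 0.00334), 1.90 (edgeR adjusted p = 0.0154) and 1.73 (edgeR adjusted p = 1.89e-09). KRT8, KRT18, KRT20 and KRT23 remained lower, at -0.67, -0.47, -2.35 and -0.84, with edgeR adjusted p-values of at most 0.0006. KRT8, KRT18, KRT20 and KRT23 were thus lower, and KRT10 and KRT15 higher, in siPIR cells with and without the offset. The median was -0.47 over the simple keratins and 1.90 over the other members, against -0.0051 over all genes. The 1.90 is the value of KRT16 itself (SE 0.656), which had 4 and 3 counts in the siPIR libraries. KRT16 and KRT80 were picked out against the same untreated libraries, so this gap is not free of that choice. That gap between the 2 classes was described and not tested. In SP2509 cells the same 2 medians were 0.47 and 3.94 with the offset. KRT80 and KRT16 were picked out on that comparison, which shares the untreated libraries, so those 2 medians are no second observation of the gap.

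Of the other 45 type I and type II keratin genes on the list, 33 stayed below 10 counts in every library, 11 of them at 0 throughout, and 9 passed the filter on low counts. KRT13, a type I keratin of stratified mucosa, had the highest counts of the 9 in untreated cells (9.87 ± 2.14 CPM, SD, n = 2). In CPM not divided by length, KRT15 (9.46 ± 1.13) did not differ from it there beyond the spread, and KRT80 was at 6.49 ± 0.885. KRT13 had 302 and 360 counts in untreated libraries, 210 and 109 with SP2509 and 8 and 11 with siPIR. Its log2 fold change was -0.66 in SP2509 cells (edgeR adjusted p = 0.0261), which no longer passed with the offset (-0.47, edgeR adjusted p = 0.18), and -4.30 in siPIR cells (edgeR adjusted p = 2.8e-07), which did not pass with the offset either (-1.51, edgeR adjusted p = 0.0704). KRT222, a keratin-like gene, had 60 and 50 untreated counts, 28 and 27 with SP2509 and 161 and 131 with siPIR (log2 fold change 2.23, edgeR adjusted p = 7.05e-08). With the offset its change was 0.041 in siPIR cells (edgeR adjusted p = 0.856), at a GC content of 34.2%. KRT17 and 4 of the 5 tested type II genes passed the filter through the SP2509 libraries alone, so they had to be higher there, and no count or median is drawn from them. The 4 were KRT6A, the type II partner of KRT16, with 3.5 and 0 counts in untreated and 23.7 and 16.5 in SP2509 libraries, and the hair keratins KRT81, KRT83 and KRT86, of which KRT86 had 7 and 3 against 79.8 and 89.3 counts. The hair keratins are near-identical copies, and their counts are uncertain for that reason. KRT17 had 7 and 1 untreated counts, 21 and 18 with SP2509 and 0 in both siPIR libraries, and KRT14, at 19.5 counts or fewer per library, did not enter the fit. KRT5, the type II partner of KRT14 in basal cells, had 17 and 18 untreated counts, 3 and 4 with SP2509 and 0 in both siPIR libraries, where a count of 0 allows up to 3.

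Genes that work with keratin filaments were followed through lists, which were chosen with earlier results of these data known. The genes named from a list had its largest changes past the threshold, as did KRT13 and KRT222 above. Their p-values are therefore not independent of that choice. Over all genes tested, 33.5% were called higher and 35.1% lower in SP2509 cells. In siPIR cells these shares were 39.3% and 46.9%, or 33.4% and 30.6% with the offset. No split of a list was tested against them, here or in the lists that follow. Genes that passed the filter through the libraries of a single group were not set apart in these lists. Of 17 tested genes of desmosomes and keratin linkers, 10 rose and 4 fell in SP2509 cells (median log2 fold change 0.41). The split was 5 and 5 with upper-quartile scaling and 5 and 7 with total counts. PLEC, which encodes the cytolinker plectin, rose from 715 to 2857 CPM, ITGA6, the integrin alpha 6 gene of hemidesmosomes, from 162 to 518 CPM (1.67) and PPL, the periplakin gene, from 142 to 354 CPM (1.31). EPPK1, the epiplakin gene, fell from 155 to 56.3 CPM (-1.46), and these 4 had edgeR adjusted p-values of at most 3.65e-07. In siPIR cells 9 of the 17 rose and 7 fell (median 0.36, and -0.25 with total counts), and 8 rose and 5 fell with the offset. The envoplakin gene EVPL changed there by -6.45 and the plakophilin gene PKP3 (66.7% GC) by -6.04, or -1.97 and -1.04 with the offset, while PLEC (67.0% GC) went from -5.76 to -0.85. JUP, the plakoglobin gene, changed by -4.63 and by -0.95 with the offset.

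Of 9 tested genes of other intermediate filaments, 3 rose and 4 fell in SP2509 cells (median -0.12). DES, the desmin gene, fell by 3.13 on the log2 scale, NES, the nestin gene, by 2.82 and SYNM, the synemin gene, by 1.98, while VIM, the gene of the mesenchymal filament vimentin, rose from 1.29 to 6.42 CPM (2.29). In siPIR cells 7 of the 9 fell and none rose (9 and none with total counts, edgeR), against 1 lower and 4 higher with the offset. PRPH, the peripherin gene, was at -4.06 as fitted and did not pass with the offset (-0.39, edgeR adjusted p = 0.577). The lamin genes LMNB2 and LMNA were at -4.56 and -2.95 as fitted, and at -0.94 and 0.74 with the offset.

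Of 26 listed genes of the cornified envelope and barrier stress, which accompany KRT16 in skin, 9 were tested. In SP2509 cells 6 of the 9 rose (33.5% of all genes) and none fell (35.1%), with a median of 1.88, against 6 and 2 with total counts. Any gene that passed the filter through the SP2509 libraries alone had to be higher there. Such genes were not set apart in this list, so nothing is read from this count or median. SFN, which encodes 14-3-3 sigma, rose from 93.6 to 344 CPM (log2 fold change 1.88), the kallikrein gene KLK6 from 21.0 to 83.5 CPM (1.99) and the calcium-binding protein gene S100A2 from 12.2 to 37.8 CPM (1.63), each with an edgeR adjusted p of at most 2.22e-06. In siPIR cells 7 of the 9 fell and 1 rose (median -2.05), but 3 rose and 1 fell with the offset (median 0.19). SFN was at -3.87 as fitted and 0.19 with the offset, S100A2 at -2.09 and -0.47, KLK6 at -1.79 and 0.57, and the kallikrein gene KLK7 at -0.57 and -0.13.

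Of 19 tested transcription factors known to act on keratin genes, 11 rose and 4 fell in SP2509 cells (median 0.49), a split of 8 and 8 with total counts. KLF4, a zinc finger factor of epithelial differentiation, rose from 28.3 to 188 CPM (2.73) and OVOL1 from 13.3 to 38.7 CPM (1.54), beside the AP-1 genes FOSL1 (3.85) and JUN (3.57). KLF4 also rose in siPIR cells, to 180 CPM (2.67, edgeR adjusted p = 6.21e-11, and 4.52 with the offset). CDX2, an intestinal factor, fell in SP2509 cells to 9.41 CPM (-0.68, edgeR adjusted p = 0.000226) and in siPIR cells to 1.36 CPM (-3.47, and -1.24 with the offset). JUNB, another AP-1 gene, rose in SP2509 cells from 66.3 to 164 CPM (1.31) and was at 0.626 CPM in siPIR cells (-6.72, and -2.14 with the offset). HNF4A, another factor of the intestinal programme, changed by -1.03 in SP2509 and -2.36 in siPIR cells, the latter being -1.21 with the offset. Over the 19 genes, 12 fell and 7 rose in siPIR cells as fitted (46.9% and 39.3% of all genes). With the offset 4 fell and 11 rose (30.6% and 33.4% of all genes).

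The genes nearest in pattern were found by the distance between log2 CPM values over the 6 libraries, each gene set against its own untreated mean and 0.5 CPM added, among 9784 protein-coding genes. Likeness of the fold changes follows from this choice, so nothing is read from it. Nearest to KRT8 were GGA1 (distance 0.0617), SHMT2 (0.121), TSKU (0.135), MED24 (0.135) and NPHP4 (0.148). They had log2 fold changes between -0.064 and -0.0096 in SP2509 cells and between -3.09 and -2.90 in siPIR cells, beside -0.047 and -2.87 for KRT8. Their GC contents lay between 56.7% and 62.0%. Nearest to KRT80 were UPP1 (0.909) and KRT16 (1.27), then LAMA3 (2.10), PMEPA1 (2.25) and ATF3 (2.36). Their log2 fold changes lay between 4.08 and 5.79 in SP2509 cells. In siPIR cells they ran from -1.67 for KRT16 to 1.08 for ATF3, beside -0.63 for KRT80, and LAMA3 (0.24) and ATF3 had the other sign. KRT80 and KRT16 were both picked out for their SP2509 difference, so nothing is read from their closeness. The level cut, a mean log2 CPM of at least 3, was met by KRT16 only through the SP2509 libraries. Its averages were 0.597 CPM in untreated, 23.9 in SP2509 and 0.183 in siPIR cells.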

How the data were processed

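RNA sequencing libraries came from 6 samples of HCT116, 2 per group, with groups taken from the sample titles. The authors deposited 1 table of estimated counts per Ensembl gene, in which between 9.32% and 12.0% of the values of a library are not whole, and the rule for shared reads is not stated. FastQC 0.11.8, Trimmomatic 0.32, HISAT2, featureCounts, Subread 1.6.2, edgeR 3.26.4 and GRCh38 are named per the submitters' processing notes, and a directional library kit per the labels' protocols. Annotation release and strand setting are not given there.

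Counts were rounded, filtered by filterByExpr (16503 genes, all 10 keratins among them, KRT20 through the untreated and siPIR groups and KRT16 through the untreated and SP2509 groups), scaled by TMM and fitted as 3 groups with the robust quasi-likelihood test of edgeR 4.0.16 (R 4.3.3), which left 3 residual degrees of freedom. The Benjamini-Hochberg adjustment covered every tested gene, and calls were made at 0.05. Each SE is the fold change over the root of its F. Lengths and GC contents are from GENCODE release 29, in which 57055 of 60675 identifiers were found, and GC content is that of the longest transcript. The offset removes natural splines (5 degrees of freedom each) of GC content and log2 length, fitted to how far a library departs from the 6-library average. Intervals and the floor of 3 counts cover counting error only. Alternatives were other scalings, DESeq2 1.42.0, limma-voom (limma 3.58.1), other filters, the 4 libraries compared alone, blocks, a fit that is not robust, the offset, and the removal of each library. The blocks were the replicate number in the titles and the number in the sample descriptions. In replicate order, the description numbers are 11 and 12 for untreated, 11 and 12 for SP2509, and 10 and 11 for siPIR. The fit was tested on simulated data: of genes changed by a log2 value of 1, 93.9% were recovered in each comparison (16586 genes for siPIR, 16571 for SP2509). Per comparison 98 genes were changed by that value and 102 by a log2 value of 2, up or down at random, with no GC trend. In the data 86.1% of genes passed for siPIR and 68.6% for SP2509, so the recovery does not carry over to them.

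The keratins and the gene lists were chosen with earlier results of these data known. Of 130 list entries 129 matched the table. From each list up to 4 genes of mean log2 CPM of at least 1 with the largest changes past the threshold were named, or were given as counts, with PIR, KRT5, KRT6A, KRT14 and KRT17, and the 5 genes nearest to KRT8 and to KRT80 among genes of mean log2 CPM of at least 3.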

Additional observations from a re-analysis of the deposited data

How the results depend on the processing

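In siPIR against untreated, all 10 keratins kept their direction and their side of the threshold in the fit without each library in turn and with DESeq2, limma-voom, both filters, the 4 libraries compared alone and the fit that is not robust, and with upper-quartile scaling. With the replicate block 10 members also passed (14136 genes in all, against 14212 without it), and 9 in SP2509 against untreated (11179 genes against 11316). Libraries with the same replicate number in their titles did not deviate together (correlations across genes of -0.024, -0.038 and 0.081), so the replicate numbers were not treated as pairs. The description numbers of siPIR run otherwise, so the correlations with siPIR (-0.038 and 0.081) do not cover libraries that share a description number. With the GC-length offset 5 members were higher and 4 lower in siPIR cells, against 2 and 8, and KRT7 (0.95), KRT16 (1.90), KRT19 (0.19) and KRT80 (1.73) reversed. With total counts alone 1 was higher, since KRT15 no longer passed (0.20), and with the description number as a block KRT80 did not (-0.39). In SP2509 cells KRT8 turned to 0.14 with the offset and KRT18 to -0.086 with total counts. Without 1 library, between 13550 and 14427 genes passed for siPIR and between 9340 and 12578 for SP2509, with 8 or 9 keratins in the latter.

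Of the genes called, 48.8% were higher for SP2509 (36.2% after upper-quartile scaling, 28.3% on total counts alone, where the median of all genes was -0.27 and -0.43) and 45.6% for siPIR (33.9% with total counts, median -0.89).

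With the length of the longest transcript, the KRT8 share was 42.3%, 27.5% and 40.4% in untreated, SP2509 and siPIR libraries, the summed level 1528, 2275 and 219 CPM per kb, and the ratio of type II to type I 0.751, 0.47 and 0.703. The summed level was 898 and 1215 CPM per kb in untreated and SP2509 libraries with upper-quartile scaling, and 1032, 1253 and 105 in the 3 groups with total counts. Adding pseudogene counts moved these values by less than the spread between replicates. Depth limits KRT16 and KRT20 most, with 3 counts at the lowest for KRT16 and 6 for KRT20.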
